A study of Mus musculus with 8 samples.

Results

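Glucagon and 7 further genes that mark or regulate pancreatic alpha cells were followed, probe by probe, in samples labelled as pancreatic beta cells of C57BL/6 mice. The genes were Gcg, Irx1, Irx2, Ttr, Pou3f4, Etv1, Fap and Gria3, and members were chosen by name as every non-control probe that carries one of these symbols. This gave 11 probes for 8 genes among 39429 probes on the array. Of the 11 probes, 10 were tested, and each of those 10 was well above background on all 8 arrays, so none entered the test through one diet alone.

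The mice received either a chow control diet or a high-fat diet, with 4 biological replicates on each, and all were wild-type as far as the labels say. Age, sex, the length of feeding, the number of animals behind a sample and the way the cells were isolated are not given in the sources used here. Total RNA was labelled with Cy3 and each sample was hybridised to its own Agilent mouse array. The arrays lay on 2 slides with 2 arrays of each diet on each slide, and the controls took positions 1 and 3 of a slide while the high-fat samples took 2 and 4. Diet and place on the slide therefore cannot be told apart. Levels below are log2 signals relative to the 75th percentile of the same array, and a difference is high-fat minus control on that scale.

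Alpha cells are the islet cells that make glucagon, the hormone that raises blood glucose by driving glucose output from the liver. Their hormone gene, Gcg, encodes proglucagon, which the convertase encoded by Pcsk2 cuts to glucagon in alpha cells, and their identity is held by transcription factors, the Iroquois homeobox genes among them. Samples prepared as beta cells can hold other islet cells. The defining beta cell markers were present here: all 10 listed beta cell genes, with Ins1, Ins2 and Iapp among them, were well above background on all 8 arrays. Genes of other cells were as bright. The probe of the acinar gene Cela3b had a control mean of 8.52, against 8.26 for Ins1, 8.15 for Ins2 and 7.92 for Gcg. Gcg and Ttr were also well above background on all 8 arrays, so alpha cell RNA was measured together with beta cell RNA. Because these are bulk samples, fewer cells of a type and less RNA per cell cannot be told apart.

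The probes that the results turn on are shown by the first 30 of their 60 bases, 5′ to 3′, because Irx2 and Gria3 have 2 probes each that read different places. Coordinates (mm9) come from the scanner files. Whether each place is coding or untranslated was not looked up, since no mm9 annotation was used here. The Gcg probe at chr2:62312685-62312744 (minus strand), the Irx1 probe at chr13:72095735-72095794 (minus strand), the Irx2 probes at chr13:72771499-72771558 and chr13:72768784-72768843 (plus strand) and the Gria3 probes at chrX:39031099-39031158 and chrX:39007367-39007426 (plus strand) begin as follows.
Gcg: gtcacaacacctggattatactaacagaag
Irx1: ctttgtttcttttttcccctttctgtatat
Irx2 probe 1: gatacctacggttccagtttattcacatag
Irx2 probe 2: cggggatgccttgtgcgaatcaggctcaga
Gria3 probe 1: gcgcatatttgctctcgtctttagaaaaga
Gria3 probe 2: aagttggtggaaatctggattccaaaggct
Probe 1 is in each case the probe with the higher mean signal. The 2 Irx2 probes lie 2.66 kb apart, the 2 Gria3 probes 23.7 kb apart, and the Irx1 probe lies 676 kb from Irx2 probe 1. The Fap probe (chr2:62339001-62339060) lies 26.3 kb from the Gcg probe, and in the RefSeq gene order Gcg and Fap are direct neighbours. The Etv1 probes are on chromosome 12 at chr12:39593054-39593113 and chr12:39594622-39594681, and the Pou3f4 probe is at chrX:108010778-108010837.

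Upstream sequence is shown for Gcg and Irx2, the hormone gene and the Iroquois gene for which a sequence was at hand. RefSeq's promoter table (GRCm38.p6) held 4 of the 8 members, and the 250 bases before the annotated start are given for these 2, with motif matches in capitals. Irx2 lies at chr13:72628570-72628819 on the plus strand and Gcg at chr2:62483654-62483903 on the minus strand.
Gcg: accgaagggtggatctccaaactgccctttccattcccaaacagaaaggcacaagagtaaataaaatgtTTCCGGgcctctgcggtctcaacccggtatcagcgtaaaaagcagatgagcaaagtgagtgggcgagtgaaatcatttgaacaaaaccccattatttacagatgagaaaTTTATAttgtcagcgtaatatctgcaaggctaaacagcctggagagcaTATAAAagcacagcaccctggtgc
Irx2: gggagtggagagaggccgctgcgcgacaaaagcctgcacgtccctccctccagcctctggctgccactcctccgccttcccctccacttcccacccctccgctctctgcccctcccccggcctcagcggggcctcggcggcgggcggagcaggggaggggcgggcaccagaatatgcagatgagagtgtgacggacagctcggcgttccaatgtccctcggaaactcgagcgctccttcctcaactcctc
The motifs searched on both strands were TATAAA (a core promoter element), TGTTTAC (forkhead), TAATTA (homeodomain core), ACANNTGT (Iroquois palindrome), CCGGAA (ETS core) and ATGCAAAT (POU octamer), and no 2 matches overlapped. In the Gcg window TATAAA begins 24 bases before the start and is found on the other strand at 72 bases, and CCGGAA is found on the other strand at 181 bases. Of 32851 windows of this length, 12.4% hold TATAAA and 12.03% hold CCGGAA. None of the 6 strings is in the Irx2 window, which is 68.4% G and C against 44.8% for Gcg.

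The hormone gene overlapped between the diets, and its difference was not past the threshold. Gcg read 7.67, 7.93, 8.15 and 7.93 in control replicates 1 to 4 and 8.09, 7.71, 7.53 and 7.69 in high-fat replicates 1 to 4. Of the high-fat arrays, 1 lay below every control array. The difference was -0.17 ± 0.16 (SE, limma unadjusted p = 0.318, adjusted p = 0.927), with a 95% interval from -0.52 to 0.19. It was 0.099 on slide 1 and -0.43 on slide 2, so the sign was not shared by the slides. With normexp background correction it was -0.60 (limma unadjusted p = 0.167), with quantile normalization -0.24 (unadjusted p = 0.0431, adjusted p = 0.925) and in the deposited table -0.23 (unadjusted p = 0.0491, adjusted p = 0.993). Gcg is the member measured most often: 10 spots per array carried its probe, of which 1 on control replicate 1 was left out as an outlier. The SD among single spots of an array was 0.13 to 0.19. The SD among array means was 0.20 for control and 0.23 for high-fat samples. These are unlike measures, since averaging over the spots of an array lowers the spot noise left in its mean. Every other member rested on 1 spot per array.

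Ttr encodes transthyretin, a carrier of thyroid hormone and of retinol-binding protein that alpha cells make in large amounts, and its probe is on chromosome 18. It read 5.97, 6.14, 6.35 and 6.40 in control replicates 1 to 4 and 5.90, 6.16, 6.46 and 6.44 in the high-fat replicates. The slides separated these values more than the diets did, with all 4 arrays of slide 2 above all 4 of slide 1. The difference was 0.027 ± 0.16 (SE, limma adjusted p = 0.987), with a 95% interval from -0.35 to 0.40, and its sign turns with quantile normalization, in the deposited table and with normexp background correction.

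The Iroquois genes showed the widest gap between the diets among the members. Irx1 encodes a homeodomain factor of the TALE class that marks alpha cells in the mouse islet. It read 0.69, 0.60, 1.25 and 0.60 in control replicates 1 to 4 and 0.15, -0.60, -0.28 and -0.55 in high-fat replicates 1 to 4. No high-fat array reached the lowest control array. The difference was -1.10 ± 0.21 (SE), or 2.15-fold lower. Mean levels were 0.79 ± 0.31 for control and -0.32 ± 0.34 for high-fat (SD, n = 4). It was -0.87 on slide 1 and -1.34 on slide 2. The limma unadjusted p was 0.000775 and the adjusted p over all 26047 probes was 0.383, so the difference did not pass the threshold of 0.05, nor did it under the alternative settings, where the adjusted p ranged from 0.131 to 0.942. The sign was the same in all 21 alternatives.

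Irx2, its neighbour of the same family, was read by both of its probes. Probe 1 read -0.76, -1.17, -0.53 and -0.72 in the control replicates and -1.15, -2.15, -1.39 and -1.61 in the high-fat replicates. High-fat replicate 1 lay just above control replicate 2, and the other 3 high-fat arrays lay below all controls. The difference was -0.78 ± 0.23 (SE, limma unadjusted p = 0.00891, adjusted p = 0.721), or 1.72-fold lower. It was -0.19 with normexp background correction (unadjusted p = 0.522) and -0.31 in the deposited table (unadjusted p = 0.00988), and slide 1 alone gave an unadjusted p of 0.156. Probe 2 read -3.16, -3.28, -3.93 and -3.40 in control and -3.50, -4.73, -4.41 and -4.89 in high-fat samples, again with high-fat replicate 1 among the controls. Its signal was dim, at 21.9 to 79.5 intensity units in control and 13.3 to 32.2 in high-fat samples. Its difference was -0.94 ± 0.31 (SE, limma unadjusted p = 0.0160, adjusted p = 0.759), which turns to 0.38 with normexp background correction. In the deposited table the probe 2 difference was -0.0935 (limma unadjusted p = 0.0813). With normexp without spots of high local background it was -0.26 (limma unadjusted p = 0.0651). On the slides the differences were -0.68 and -0.88 for probe 1 and -0.90 and -0.98 for probe 2. Over the 8 arrays the probes followed each other with r = 0.74 (exact permutation p = 0.0378, adjusted p = 0.0928 over 3 same-gene pairs) and rho = 0.62 (exact p = 0.115, adjusted p = 0.256). Within slides r was 0.98 and 0.87, and it was 0.86 without the 2 arrays farthest from the median. These correlations include the diet difference that both probes show.

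**Figure D1:**
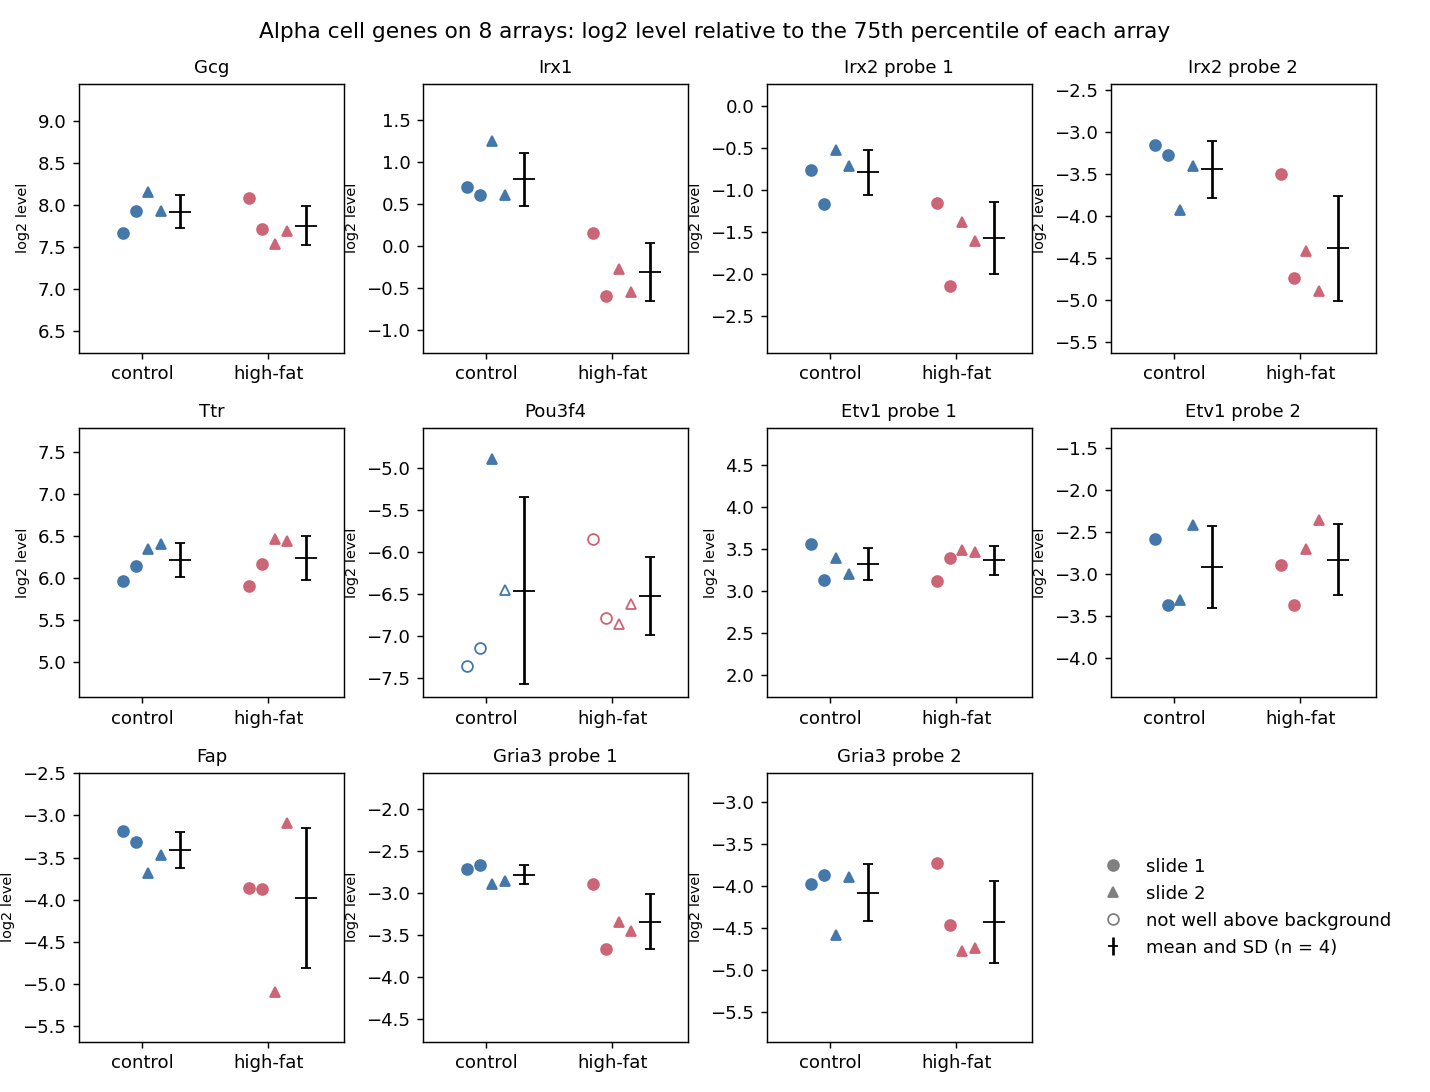
Log2 level relative to the 75th percentile of each array (vertical axis, 1 panel per probe, each spanning the same range) for the 4 control and 4 high-fat arrays. Circles are slide 1, triangles slide 2, open symbols arrays where the probe was not well above background, and bars the mean and SD. All high-fat points of Irx1 and of Gria3 probe 1 lie below the control points (the latter turns sign with normexp background correction), while those of Gcg, Ttr and Etv1 overlap.

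Gria3 encodes a subunit of AMPA-type glutamate receptors, which alpha cells use to respond to glutamate. Probe 1 read -2.71, -2.66, -2.88 and -2.85 in control and -2.89, -3.67, -3.35 and -3.45 in high-fat samples. The diets did not overlap, though high-fat replicate 1 came close to the lowest control. The difference was -0.56 ± 0.17 (SE, limma unadjusted p = 0.0100, adjusted p = 0.733), with -0.59 on slide 1 and -0.53 on slide 2. Probe 2 overlapped between the diets and differed by -0.35 ± 0.26 (SE, limma adjusted p = 0.922). Both probes were dim, at 45.2 to 109 (probe 1) and 13.9 to 45.1 (probe 2) intensity units in control samples. In high-fat samples these were 36.0 to 49.0 and 14.7 to 27.4. The signs of both probes turn with normexp background correction, to 0.36 and 0.60. In the deposited table the probe 1 difference was -0.077 (limma unadjusted p = 0.0878). With normexp without spots of high local background it was -0.19 (limma unadjusted p = 0.165). The 2 probes correlated with r = 0.73 (exact permutation p = 0.0619, adjusted p = 0.0928) and rho = 0.55 (exact p = 0.171, adjusted p = 0.256) over 8 arrays, with r = 0.87 and 0.75 within slides and 0.74 without the 2 farthest arrays. Here too the correlations include the diet difference.

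Fap encodes a membrane serine protease of the prolyl peptidase group, found on alpha cells and on activated fibroblasts. It read -3.18, -3.31, -3.68 and -3.47 in control and -3.86, -3.88, -5.10 and -3.08 in high-fat samples. Of the high-fat arrays 3 lay below all controls, and replicate 4 lay above them all. The Fap signal was dim, at 26.0 to 78.4 intensity units in control and 13.4 to 46.4 in high-fat samples. The difference of -0.57 ± 0.37 (SE, limma adjusted p = 0.921) was -0.20 without high-fat replicate 3 and -0.87 without high-fat replicate 4, and it turns to 0.38 with normexp background correction. Of the fibroblast-lineage genes measured beside it, Col1a1 stood at 0.24 ± 0.63 and Col3a1 at 0.37 ± 0.46 (SE), and without high-fat replicate 4 at -0.32 and -0.026. The summed level of the 5 stellate cell and pericyte genes, off the log2 scale, was 3.23 to 3.99 in control and 3.47 to 6.19 in high-fat samples, highest in high-fat replicate 4. Rgs5 and Acta2 weighed most in it, with log2 control means of 0.63 and 0.34 against -2.28 for Col1a1 and -1.34 for Col3a1. The part of these genes in the Fap values was not tested.

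Etv1, an ETS factor of the PEA3 group, overlapped between the diets with both probes. Probe 1 read 3.56, 3.13, 3.39 and 3.20 in control and 3.12, 3.39, 3.49 and 3.47 in high-fat samples, a difference of 0.044 ± 0.14 (SE, limma adjusted p = 0.974) with a 95% interval from -0.27 to 0.36. Probe 2 differed by 0.088 ± 0.29 (adjusted p = 0.977, 95% interval from -0.57 to 0.75). Its signal was dim, between 33.9 and 118 intensity units on control arrays, and the probes did not follow each other closely over the 8 arrays (r = 0.30, exact permutation p = 0.448, adjusted p = 0.448, and rho = 0.45, exact p = 0.267, adjusted p = 0.267). Within slides r was 0.48 and -0.18, and it was 0.011 without the 2 farthest arrays. The signs of both probes turn on slide 1.

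Pou3f4, also called Brn4, is a POU factor that binds the glucagon gene promoter. Its probe was well above background on 1 of 4 control arrays and 0 of 4 high-fat arrays, with signals of 3.34 to 11.2 intensity units in control and 3.96 to 6.28 in high-fat samples. It was not tested, and no fold is given for it.

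Of the 10 member probes tested, 4 differed at a limma unadjusted p under 0.05, all lower in high-fat samples (Irx1, both Irx2 probes and Gria3 probe 1), where 3.46% of all probes tested were lower and 5.79% differed in either direction. High-fat and control values were separate, with high-fat lower, for 2 of the 10 (Irx1 and Gria3 probe 1) against 1.77% of all probes, and with high-fat higher for 0 of the 10 against 1.58%. At an adjusted p under 0.05, limma called 0 of the 10 member probes and 0% of all probes, and at an unadjusted p under 0.05 it listed 1507 of 26047. The median difference over all probes was -0.013. Members were chosen with earlier results of these data known, so their counts are no independent test.

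**Figure D2:**
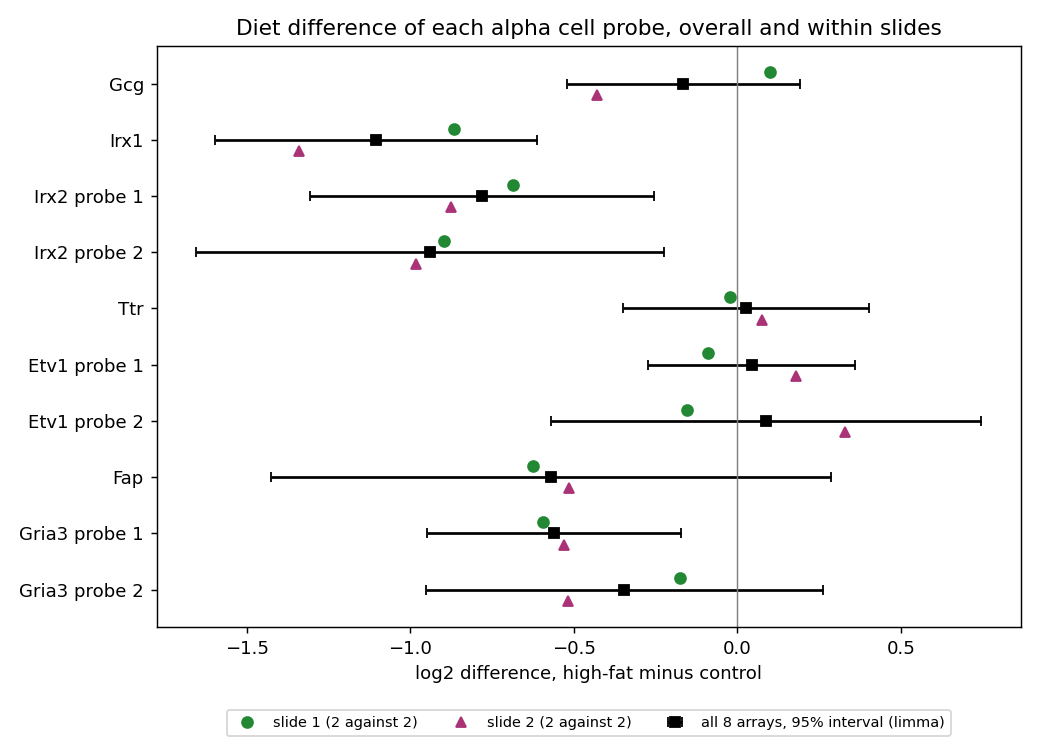
Log2 difference, high-fat minus control, for the 10 member probes tested. Squares with bars are the limma estimate over all 8 arrays and its 95% interval, circles slide 1 and triangles slide 2 (2 arrays against 2 each). The Irx1, Irx2 and Gria3 probe 1 intervals lie below 0 and both slides give the same sign, with Irx2 probe 2 and Gria3 probe 1 turning under normexp background correction, and the intervals of Gcg, Ttr, both Etv1 probes, Fap and Gria3 probe 2 span 0.

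Whether the other members differed by the same amount as the hormone gene was asked within each array, as the log2 level of a member minus that of Gcg, which removes the scaling of the array. For Irx1 this was -6.98, -7.33, -6.90 and -7.33 in control replicates 1 to 4 and -7.93, -8.31, -7.81 and -8.24 in high-fat replicates 1 to 4. All high-fat values lay below all control values, and the SD was 0.23 among controls and 0.24 among high-fat samples (n = 4). Irx1 was thus 1.92-fold lower relative to Gcg, by -0.94 over all arrays, -0.97 within slide 1 and -0.91 within slide 2. The two-sided exact permutation p was 0.0286, the smallest this design allows, and 0.193 after adjustment over the 9 probes compared. With normexp background correction the difference was -0.22 (exact permutation p = 0.771). Normexp without spots of high local background gave -0.80 (exact permutation p = 0.0286, adjusted p = 0.257).

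Relative to Gcg, Irx2 differed by -0.62 (probe 1, exact permutation p = 0.0571) and -0.78 (probe 2, exact permutation p = 0.0857), and Gria3 probe 1 by -0.40 (exact permutation p = 0.0857), each with an adjusted p of 0.193. All 3 signs turn with normexp background correction. Without spots of high local background normexp kept them, at -0.39, -0.072 and -0.0088. Ttr stood at 0.19 relative to Gcg, and Etv1 at 0.21 and 0.25, with adjusted p = 0.514 for each in the exact permutation test. On slide 1 these 3 were -0.12, -0.19 and -0.25 and on slide 2 they were 0.50, 0.61 and 0.76. Fap and Gria3 probe 2 differed by -0.40 and -0.18 (adjusted p = 0.514, exact permutation test).

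**Figure D3:**
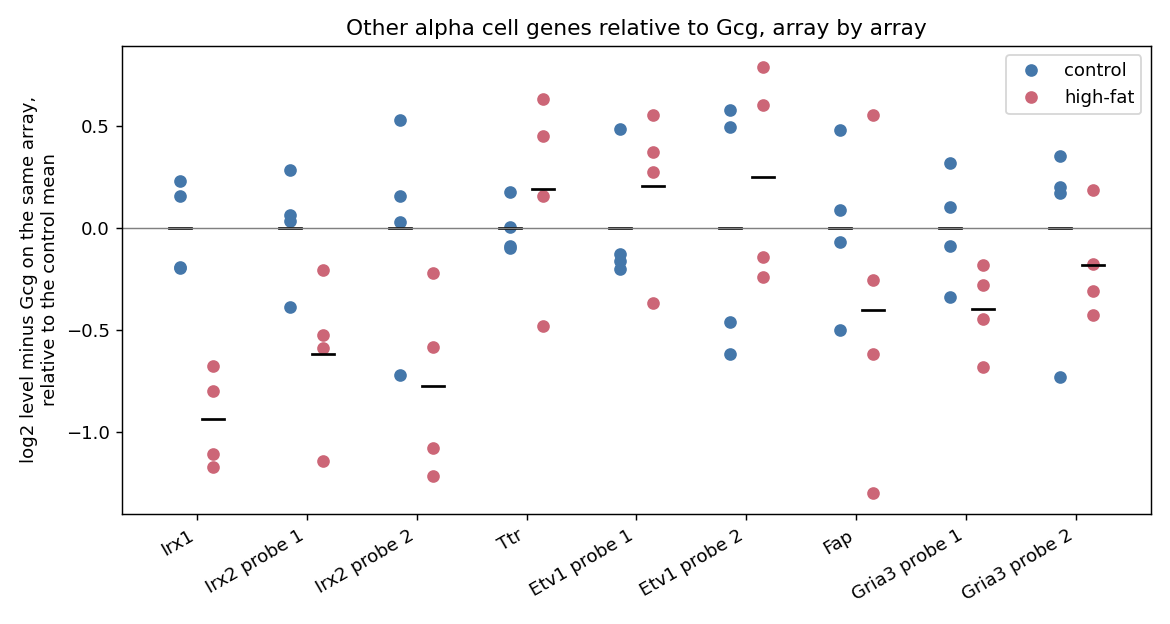
Log2 level of each member probe minus that of Gcg on the same array, shown relative to the control mean of that probe (vertical axis), for the 4 control and 4 high-fat arrays, with bars at the group means. For Irx1 the high-fat points, with a mean of -0.94, lie apart from the control points, and for the other 8 probes the diets overlap.

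Across the 8 arrays, no member followed Gcg beyond what permuted arrays gave after adjustment over 9 relations. Irx1 correlated with Gcg with r = 0.65 (exact permutation p = 0.0808, adjusted p = 0.364) and rho = 0.40 (exact p = 0.327, adjusted p = 0.490). The value was r = 0.38 without control replicate 3 and high-fat replicate 3, and it was 0.13 on slide 1 and 0.93 on slide 2, each over 4 arrays. Etv1 probe 1 had r = -0.68 (exact permutation p = 0.0780, adjusted p = 0.364) and rho = -0.74 (exact p = 0.0458, adjusted p = 0.412), with r = -0.94 without the same arrays and -0.93 and -0.54 on the slides. For Ttr r was -0.26 (exact permutation p = 0.519, adjusted p = 0.519) and rho -0.43 (exact p = 0.299, adjusted p = 0.490), with -0.39 and -0.99 on the slides and -0.28 without the same arrays.

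By Pearson r over the 8 arrays, among 20297 probes with a gene symbol, the patterns most like Gcg were those of Gstm2 (r = 0.96), Eif4ebp2 (0.95), Tldc2 (0.95), Slc38a5 (0.95) and Traf4 (0.95). Slc38a5, a glutamine transporter of alpha cells, differed by -0.27 ± 0.41 (SE), with 0.52 on slide 1 and -1.06 on slide 2. Among the 5 most like Irx1 were Tmsb15b1 (r = 0.98), Avpr1b (0.98), Pdxp (0.98) and Itpr1 (0.97). Avpr1b encodes a vasopressin receptor, and its difference was -1.38 ± 0.25 (SE). These values of r include the diet difference itself and the slides, and are a description of 8 arrays.

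Other alpha cell genes are given next, from a list chosen with earlier results of these data known, so its counts are no independent check. Of 8 listed genes 7 were tested, 5 of which had a difference below 0 (52.5% of all probes did), 2 were lower and 1 higher at a limma unadjusted p under 0.05, and 0 passed the adjusted threshold. The median difference of the 7 was -0.34 against -0.013 over all probes. The 2 lower genes were Tmsb15l and Smarca1 and the higher one was Gc, and 2.33% of all probes were higher at that p.

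Tmsb15l, a thymosin beta gene, differed by -0.92 ± 0.15 (limma adjusted p = 0.265) and Smarca1, a chromatin remodelling ATPase, by -0.46 ± 0.12 (adjusted p = 0.587, SE). Gc, the vitamin D binding protein that alpha cells secrete, went the other way. It read 3.41, 3.91, 3.41 and 3.76 in control and 4.10, 5.07, 5.35 and 5.25 in high-fat samples, with every high-fat array above every control array. Its difference was 1.32 ± 0.28 (SE, limma unadjusted p = 0.00129, adjusted p = 0.427), with 0.93 on slide 1 and 1.72 on slide 2. The signs of these 3 genes were the same in all 21 alternatives.

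**Figure D4:**
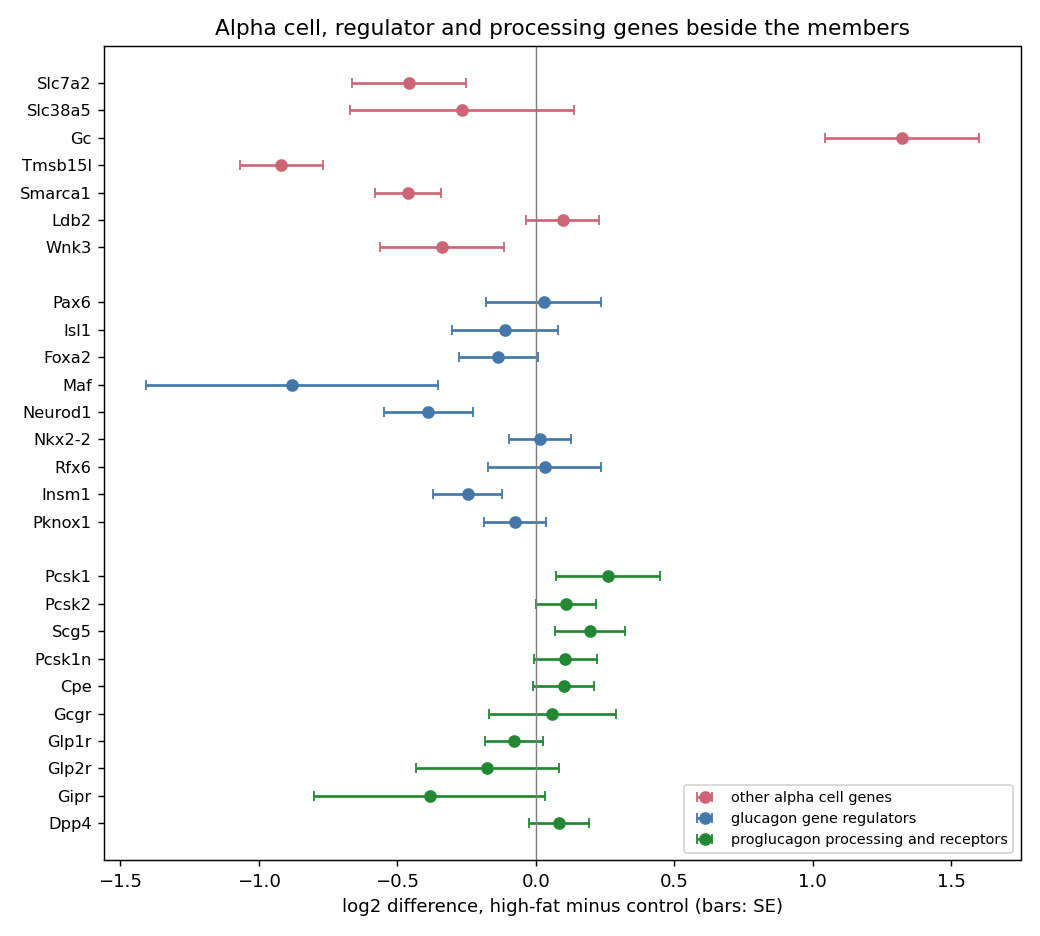
Log2 difference, high-fat minus control, with its SE from limma, for the tested genes of 3 lists: other alpha cell genes, regulators of the glucagon gene, and proglucagon processing and receptors. Tmsb15l lies at -0.92, Gc lies at 1.32, and the 5 processing genes from Pcsk1 to Cpe lie between 0.10 and 0.26. All 5 turn sign under normexp background correction (to -0.33 at the lowest), Pcsk1n and Cpe also with quantile normalization and on slide 2, and Pcsk1 on slide 1. Normexp without spots of high local background gave 0.24 for Pcsk1, 0.11 for Pcsk2, 0.20 for Scg5, 0.12 for Pcsk1n and 0.086 for Cpe.

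Regulators of the glucagon gene, most of them shared with other islet cells, were compared next. Of 11 listed, 9 were tested, with 1 lower and 0 higher at a limma unadjusted p under 0.05 and a median difference of -0.11. That 1 was Neurod1, a basic helix-loop-helix factor of all islet endocrine cells, at -0.39 ± 0.16 (SE, limma unadjusted p = 0.0396, adjusted p = 0.830). Its limma unadjusted p was under 0.05 in only 11 of 21 alternatives. Maf, a leucine zipper factor, had the difference farthest from 0 in the list at -0.88 ± 0.53 (SE, limma unadjusted p = 0.132, adjusted p = 0.913). It turns to 0.42 with normexp background correction and was -0.13 with normexp without spots of high local background. Pax6, which binds the glucagon promoter and acts in beta cells too, stood at 0.029 ± 0.21 (SE). Foxa1 and Cdx2 were not well above background on at least 4 arrays and were not tested.

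The proglucagon processing and receptor genes gave 0 lower and 0 higher of 10 tested at that p, with a median of 0.093. Pcsk2 read 8.02, 8.21, 8.10 and 8.02 in control and 8.20, 8.35, 8.05 and 8.19 in high-fat samples. It differed by 0.11 ± 0.11 (SE, limma adjusted p = 0.930), which turns sign with normexp background correction but not with normexp without spots of high local background (0.11). The glucagon receptor gene Gcgr stood at 0.060 ± 0.23 (SE). Beta cells also express most genes of this list.

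Relatives of the members were compared to see whether the families shared the differences. Of the other Iroquois genes, Irx3, Irx4 and Irx6 were tested and stood at 0.097 ± 0.35, 0.28 ± 0.24 and 0.071 ± 0.32 (SE), with 0 at an unadjusted p under 0.05 in limma, and Irx5 was not well above background on any of the 8 arrays. The 3 tested were dim, with control means of -4.59, -2.52 and -3.97 against 0.79 for Irx1. Slides 1 and 2 gave opposite signs for each (-0.40 and 0.59, 0.58 and -0.023, 0.50 and -0.36). These values therefore cannot decide whether the family shared the differences. The PEA3 relative Etv5 differed by 0.41 ± 0.13 (SE, limma unadjusted p = 0.0106, adjusted p = 0.738), with no overlap between the diets. It turns to -0.0080 with normexp background correction, and was 0.41 with normexp without spots of high local background and 0.36 in the deposited table. Etv4 stood at 0.15 ± 0.16 (SE). Among the AMPA receptor subunits Gria2 was tested and differed by -0.54 ± 0.48 (SE), and Gria1 and Gria4 were not tested. Pou3f1 was the one relative of Pou3f4 tested, at -0.12 ± 0.19 (SE). Of the 4 peptidases related to Fap, 0 differed at an unadjusted p under 0.05 and their median was -0.057.

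Of the genes that work with transthyretin, 1 of 5 tested was lower and 1 higher at a limma unadjusted p under 0.05. Rbp4, the retinol carrier that binds transthyretin and that islets make mainly in delta cells, differed by -0.45 ± 0.094 (SE, limma unadjusted p = 0.00130, adjusted p = 0.427), without overlap between the diets. The deiodinase Dio1 differed by 0.51 ± 0.19 (SE, limma unadjusted p = 0.0273, adjusted p = 0.796) and overlapped. Its limma unadjusted p was under 0.05 in 14 of 21 alternatives.

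Markers of the other cell types in the samples were set beside these results. All 4 delta cell genes listed were lower at a limma unadjusted p under 0.05, where 3.46% of all probes were lower. Their summed level, off the log2 scale, was 169 to 195 in control and 131 to 144 in high-fat samples, without overlap. Sst made up most of this sum, with a log2 control mean of 7.23 against 4.91 for Rbp4, -0.046 for Hhex and -3.63 for Ghsr. The Sst difference was -0.39 ± 0.10 (SE). Rbp4 is also counted among the genes that work with transthyretin. Ghsr of that list turns from -1.02 to 0.42 with normexp background correction, where Sst and Hhex also have an unadjusted p above 0.05. Normexp without spots of high local background gave -0.26 for Ghsr, with a limma unadjusted p above 0.05. The summed level of the 10 beta cell genes was 807 to 1152 in control and 879 to 1165 in high-fat samples, with 1 lower and 1 higher at that p, and Ins1, Ins2 and Iapp stood at 0.026, 0.045 and 0.034. Ppy of PP cells stood at -0.037 ± 0.24 (SE). The 6 acinar genes summed to 1260 to 2483 in control and 1540 to 2716 in high-fat samples, with 0 at that p, and Cela3b stood at 0.30 ± 0.31 (SE). Of the ductal, endothelial, stellate and pericyte, macrophage, lymphocyte, Schwann and epsilon cell lists, 0 genes passed that p, and no defining marker of a listed type was absent except Cftr of ductal cells, which was not well above background on any of the 8 arrays, while Adgre1 of macrophages had no probe under that symbol and was read under its older symbol Emr1. Median differences were -0.52 for the delta cell, -0.66 for the lymphocyte, -0.45 for the macrophage and -0.33 for the Schwann cell list. They were 0.082 for the ductal, 0.12 for the endothelial, 0.24 for the stellate and pericyte and 0.68 for the epsilon list, against -0.013 over all probes. A median below that of all probes was therefore not particular to the alpha cell list. The part of these cell types in the differences of the alpha cell genes was not tested.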

How the data were processed

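Total RNA of 8 samples was measured on Agilent mouse arrays with 1 colour. Per the file headers, the authors' scanner files were made with Feature Extraction 11.5.1.1 and hold a signal per spot as an intensity. A deposited table gives the authors' log2 values for these arrays, and the submitters' processing notes name limma without parameters. The intensity (processed signal) of each non-control spot was put on the log2 scale, spots marked as outliers were left out, the 75th percentile of the array was subtracted and spots of a probe were averaged. Its 75th percentile ranged from 334 to 711 intensity units, and 63.6% to 68.6% of spots were well above background. Probes well above background on at least 4 arrays and with values on at least 6 were tested, 26047 in all. The number of arrays limits the precision, with a median SE of 0.17. No member spot was saturated.

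Diets were compared with limma 3.58.1 (lmFit, eBayes) in R 4.3.3, with Benjamini-Hochberg adjustment over all probes tested and a threshold of 0.05. Single values were tested by exact permutation in Python 3.11.15 with scipy 1.17.1. The fit was tested on simulated data. For a list gene with several probes, the probe with the highest mean was used. Members and lists were chosen with earlier results of these data known. All members were named, with up to 4 genes per list at an unadjusted p under 0.05, a few set hormone and marker genes, and the 5 genes most like Gcg and Irx1. Further genes were named after their values were seen. Some genes that these rules name are not reported here, and list counts leave them out. Labels call the samples biological replicates, and p-values measure the spread between these samples. Other settings tried were normexp (offset 50, also without spots of high local background), quantile normalization, median scaling, the deposited table, other filters, 1 probe per gene, a trended robust eBayes, slide and replicate blocks, single slides and leaving out each sample.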

Additional observations from a re-analysis of the deposited data

Results flagged for a closer look

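Of 22 sets of 4 arrays, a set being a member probe on a diet, 2 held an array far from the other 3, where chance gives about 1 in 20. Both were control replicate 3. Its Irx1 level was 1.25, with the other controls between 0.60 and 0.69, and without it the Irx1 difference was -0.95. Its level of Gria3 probe 2 was -4.58, below the other controls.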

How the results depend on the processing

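The number of probes past the adjusted threshold was 0, and 1 with the deposited table and 1 with a trended robust eBayes, both times Gfra3, which is no member and is named here after its value was seen. The number of member probes lower at an unadjusted p under 0.05 was 4. It was 1 with normexp background correction, 2 with normexp without spots of high local background and 2 on slide 1 alone, 3 in the deposited table, 5 with quantile normalization, and 4 to 5 when a sample was left out. Gcg was among these probes in the deposited table and with quantile normalization. On slide 1 alone they were Irx1 and Fap (limma unadjusted p = 0.0410 and 0.0137). Both Irx2 probes and Gria3 probe 1 were above 0.05 there. The number of probes that differed relative to Gcg at an exact p under 0.05 was 1. It was 0 with normexp, 1 with normexp without spots of high local background and 2 with the deposited table, and 1 to 2 when a sample was left out. Beside Irx1, the deposited table added Etv1 probe 2, which was higher relative to Gcg (0.27, exact permutation p = 0.0286). Leaving out control replicate 3 added Gria3 probe 1, which was lower (-0.51, exact permutation p = 0.0286). Normexp moved the median of all probes to 0.19, and 1 array, high-fat replicate 2, had spots whose local background reached 261989 intensity units. Without spots of high local background that median was 0.024.

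Signs turned as follows, and the cause was not tested. With normexp, differences were 0.38 for Irx2 probe 2, -0.38 for Ttr, -0.38 for Etv1 probe 1, 0.38 for Fap, 0.36 for Gria3 probe 1 and 0.60 for Gria3 probe 2. Without spots of high local background normexp kept the main signs, and the differences were -0.26, 0.032, 0.041, -0.18, -0.19 and -0.034 in that order. With quantile normalization they were -0.098 for Ttr and -0.039 for Etv1 probe 1, and in the deposited table -0.044 and -0.024. On slide 1 alone they were 0.099 for Gcg, -0.022 for Ttr, -0.090 for Etv1 probe 1 and -0.15 for Etv1 probe 2. Leaving out a sample gave -0.055 to 0.14 for Ttr, -0.019 to 0.13 for Etv1 probe 1 and -0.069 to 0.27 for Etv1 probe 2. Relative to Gcg, normexp gave 0.98 for Fap, 0.96 for Gria3 probe 1, 1.20 for Gria3 probe 2, 0.41 for Irx2 probe 1 and 0.98 for Irx2 probe 2. Normexp without spots of high local background gave 0.0020 for Fap and 0.15 for Gria3 probe 2. The deposited table gave 0.16 for Fap, 0.15 and 0.20 for the Gria3 probes and 0.13 for Irx2 probe 2. Slide 1 gave -0.19 and -0.25 for the Etv1 probes and -0.12 for Ttr.

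Same-numbered control and high-fat arrays correlated in their deviations from the diet means between -0.024 and 0.39. Of 4 pairs 3 were above 0.1, and 3 of 4 controls correlated best with their own number, which is short of every pair, so the pairing is unsettled and the fit without it was kept. The description of high-fat replicate 4 carries another number than its title, so its number is in doubt for the block. With the replicate number as a block, 4 member probes were lower at an unadjusted p under 0.05 and 0 of all probes passed the adjusted threshold, with 2419 against 1507 at an unadjusted p under 0.05, and Irx1 relative to Gcg had an exact p of 0.125, the smallest that 4 pairs allow.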

Other observations

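The protein-coding neighbours of Gcg and Fap and of Irx1 and Irx2 in RefSeq gene order, 3 on each side, were read after the other results had been seen. Around Gcg and Fap, 4 of 6 neighbours were tested. Ifih1, a cytosolic sensor of viral RNA, differed by -0.41 ± 0.12 (SE, limma unadjusted p = 0.00875, adjusted p = 0.717) without overlap between the diets, and Slc4a10, a bicarbonate transporter, by 0.52 ± 0.19 (SE, limma unadjusted p = 0.0247, adjusted p = 0.796). Dpp4, the peptidase that inactivates GLP-1, stood at 0.085 ± 0.11 and Gca at 0.15 ± 0.13 (SE). Around Irx1 and Irx2, 3 of 6 were tested, and Irx4, Ndufs6 and Mrpl36 stood at 0.28 ± 0.24, 0.17 ± 0.13 and -0.097 ± 0.10 (SE), with 0 at an unadjusted p under 0.05 in limma.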
